A study of Mus musculus with 4 samples.

Results

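The BCL2 family decides whether mitochondria release the proteins that start apoptosis. The members measured here were Bcl2, Bcl2l1, Bcl2l2, Mcl1, Bak1, Bcl2l11, Bad and Bid. They were chosen by gene symbol: a row of the deposited table counted when the array annotation gave it exactly 1 symbol and that symbol stood on a list of 9 family members. Of the 9 symbols 8 named a row, Bax named none, and together they took 14 of the 12422 probe sets that are not controls, or 8 of the 8251 genes named. The list was drawn up with earlier results of these arrays in view, in which a probe set of Bcl2l11 had one of the steepest declines over the hours. Differences between hours are therefore given below as descriptions of the members, with no test drawn from them.

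RNA came from the dentate gyrus, the part of the hippocampus that holds the granule cells, of young male C57BL/6J mice. All 4 samples were handled controls with no other treatment, and their RNA was extracted 1, 2, 4 or 6 h after other mice of the study had their last shock. The shocked animals themselves were not analysed here. With 1 single-channel array per hour an hour has no replicate, and whether RNA was pooled over mice is not stated in the labels. A mean ± SD below runs over the 4 arrays (n = 4) and holds the hour and the array together. In a tissue sample, fewer cells of a type and less RNA per cell cannot be told apart.

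In the family, the anti-apoptotic proteins Bcl2, Bcl-xL (gene Bcl2l1), Bcl-w (Bcl2l2) and Mcl1 hold the pore-forming proteins Bax and Bak in check at the outer mitochondrial membrane. The BH3-only proteins, here Bim (Bcl2l11), Bad and Bid, sense stress and bind the guardians or the pore formers, after which cytochrome c leaves the mitochondria and caspases are activated. In the adult dentate gyrus, many newly born neurons die by this route, and mice without Bax keep more of them.

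Probe set 99418_at of Bcl2l11 had the widest range among the member probe sets, 8.83-fold. The promoter windows of Bcl2l11 are shown for that reason, although another of its probe sets, 100988_at, ranged over only 1.52-fold. A RefSeq promoter table held windows for all 9 listed genes and gave Bcl2l11 2 start sites on chromosome 2, each with a window of 250 bases before to 50 bases after the start on the plus strand of GRCm38.p6. The first spans chr2:128125788-128126087 and the second chr2:128127325-128127624. Capitals mark the letters GTAAACA, a core motif of FOXO transcription factors, which are known to bind the Bcl2l11 promoter in rat neurons.

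Bcl2l11 start 1: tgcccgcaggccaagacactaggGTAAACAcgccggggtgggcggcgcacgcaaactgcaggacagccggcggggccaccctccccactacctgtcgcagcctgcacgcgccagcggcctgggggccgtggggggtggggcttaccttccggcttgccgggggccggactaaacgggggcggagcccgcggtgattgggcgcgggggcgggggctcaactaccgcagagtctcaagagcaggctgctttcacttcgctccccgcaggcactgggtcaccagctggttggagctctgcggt
Bcl2l11 start 2: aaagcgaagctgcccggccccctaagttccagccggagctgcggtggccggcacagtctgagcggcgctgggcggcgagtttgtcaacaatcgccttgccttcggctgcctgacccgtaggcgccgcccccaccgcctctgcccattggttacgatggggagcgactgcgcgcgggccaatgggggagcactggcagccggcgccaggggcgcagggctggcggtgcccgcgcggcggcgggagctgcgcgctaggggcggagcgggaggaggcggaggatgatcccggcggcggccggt

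The match in the first window begins 227 bases before the start, at -227. Both strands were searched, and 1199 of 32851 promoter windows in the table (3.65%) held the motif. Among the 13 windows of the listed genes, Bax included, it was found in this 1 only. The AP-1 motif TGANTCA was in none of the 13 windows and in 7.81% of all windows. The GC box GGGCGG was in 8 of the 13, belonging to 7 genes, and in 35.7% of all windows. The 3 motifs were picked after the sequences were seen, none of the matches above overlap, and a match is a description of letters rather than a binding site.

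Arrays were compared as deposited, on a linear intensity scale. Intensities under 16.4, the 10th percentile of all values, were set to that floor before log2 was taken, and probe sets entered the tests (here called kept) if their average log2 value was at or above the 40th percentile. Of the 14 member probe sets 11 were kept and 3 were too dim. Brightness differs between probes for reasons other than transcript number, so levels are compared only between arrays and never between genes.

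The 1 h array differed from the others in its controls. The 3' to 5' intensity ratio of Gapdh was 4.88 at 1 h and 1.13, 1.33 and 1.24 at 2, 4 and 6 h, and that of beta-actin 2.51 at 1 h and 1.83, 2.20 and 1.97 later. At 6 h the whole distribution had a lower end that was dimmer, with 1462 probe sets under the floor against 1056, 1179 and 1248 at 1, 2 and 4 h. Of 9 listed granule cell markers 5 were on the array, with 6 of their 7 probe sets kept and a summed intensity of 4611, 4732, 4801 and 5230 at 1, 2, 4 and 6 h. Calb1 read 2033, 2052, 2323 and 2375, and Prox1, the defining factor of granule cells, a dim 71.6, 278, 155 and 232. Neurod1 of the same list read 418, 470, 326 and 353, and Tdo2 99269_g_at 959, 764, 758 and 993. Neurod1 and Dsp 161892_r_at, which was too dim to be kept, were lower at 6 h than at 1 h. The others of the granule cell list were higher. Markers of other cells were measured as well, with sums of 15029 to 18365 for CA pyramidal cells, 17994 to 21788 for astrocytes, 14764 to 21829 for oligodendrocytes and 9309.5 to 10012 for microglia. The granule cell sum was higher at each later hour, as was the interneuron sum at 15229, 15573, 16027 and 16147. In the interneuron list Calb2 read 662.5, 1265, 1229 and 1426.5, and without it the summed intensity was not higher at each later hour. Pvalb 96719_i_at of the same list read 2586.5, 2304, 2365.5 and 2144. Gad2 and Pvalb 96720_f_at were also lower at 6 h than at 1 h, and the others of the list were higher. The choroid plexus sum (8 probe sets of 5 of 8 listed genes) was 2209, 3706, 5061 and 6872 at 1, 2, 4 and 6 h, and the endothelial sum (7 probe sets of 6 of 8 listed genes) 1605, 1387, 1343 and 948; no probe set of either list lay under the floor in all arrays. Most of the choroid plexus sum came from Ttr, the transthyretin gene and the 1 probe set of the whole table whose trend passed the test below, and from Igf2 98623_g_at. Ttr read 225, 444, 1258 and 3009 and Igf2 98623_g_at 1501, 2876, 3282 and 3269. Kl, Folr1 162302_f_at and Igf2 98622_at were lower at 6 h than at 1 h. In the endothelial list Flt1 read 327.5, 65.8, 185.6 and 55.3 on 98453_at and 352, 361, 242 and 212 on 98452_at. Cdh5 read 133, 28.1, 114 and 139, and the others of the endothelial list were lower at 6 h than at 1 h.

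**Figure D1:**
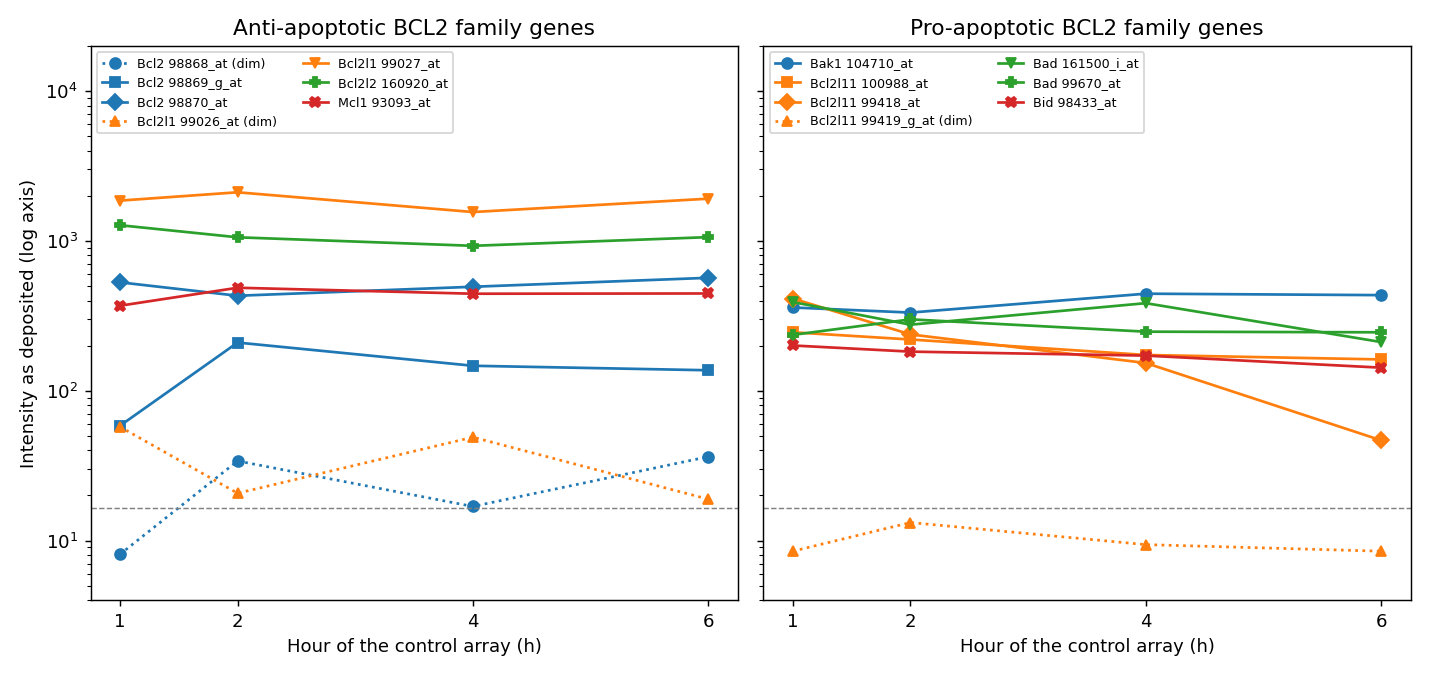
Deposited intensity (log axis) of the 14 member probe sets against the hour of the control array, anti-apoptotic genes on the left and pro-apoptotic genes on the right. Each line is 1 probe set with 1 array per hour, dotted where it was too dim to be tested, and the dashed line is the floor of 16.4; Bcl2l11 99418_at runs down to 46.7 at 6 h and Bcl2 98869_g_at starts at 58.4 at 1 h, while the other 9 tested lines stay within a range of 1.85-fold.

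In 9 of the 11 kept probe sets the highest array was less than 2-fold above the lowest, with folds of 1.27 to 1.85. The other 2 were Bcl2l11 99418_at and Bcl2 98869_g_at, against a background of 18.5% of all 7453 kept probe sets that reached 2-fold between their highest and lowest array, so the members' share was close to the background. Without the 1 h array 1 of 11 members did (Bcl2l11 99418_at), against 8.22%. The SD of log2 intensity over the 4 arrays had a median of 0.21 in the 11 members and of 0.24 in all kept probe sets.

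Among the guardians, Bcl2l1, which encodes the main survival protein of mature neurons, read 1857, 2111, 1558 and 1913 at 1, 2, 4 and 6 h on probe set 99027_at, a mean of 1859.6 ± 229 (SD, n = 4). The 2 h array was the highest and the 4 h array the lowest, with no steady order. A second probe set of Bcl2l1, 99026_at, was dim and read 57.5, 20.7, 49.0 and 18.9. Its ups and downs did not follow those of the brighter one: at 2 h it was low where 99027_at was highest.

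Bcl2l2 read 1272, 1057, 927 and 1059, a mean of 1079 ± 143 (SD, n = 4). It was highest at 1 h and lowest at 4 h, and its slope of -0.05 log2 units per hour became 0.0008 without the 1 h array. Mcl1, a short-lived guardian that neural precursors depend on, read 369, 487, 444 and 446, a mean of 437 ± 48.9 (SD, n = 4). The 1 h array was its lowest and the 3 later arrays lay close together, with an SD of 0.07 on the log2 scale among them against 0.17 with all 4.

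Bcl2, the founding member, had 3 probe sets built on the same sequence record, and they did not move together. The brightest, 98870_at, read 529, 431, 494 and 567, a mean of 505 ± 58.0 (SD, n = 4). Its lowest array was 2 h and its highest 6 h, 1.32-fold apart. Probe set 98869_g_at read 58.4, 209.7, 146.8 and 137.0. Here the 1 h array stood alone at the bottom, 1.47 log2 units under the mean of the other 3, and the 2 h array was the highest, 3.59-fold above it. The third probe set, 98868_at, read 8.1, 34.0, 16.9 and 36.3, with the 1 h value under the floor. The slope of 98869_g_at was 0.14 log2 units per hour over all 4 arrays and -0.15 without the 1 h array, so its direction rests on that array. The Gapdh 5' probe set was also low at 1 h, at 7553 against 26761, 24943 and 25427 at 2, 4 and 6 h; the part of RNA quality in the Bcl2 value was not tested. Probe sets with the suffix _g_at, _i_at, _f_at, _r_at or _s_at may share sequence with related transcripts or use fewer probes, which makes their values less certain.

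The pore-forming protein gene Bak1 read 359, 332, 444 and 435, a mean of 393 ± 55.3 (SD, n = 4). The 4 h and 6 h arrays were above the 1 h and 2 h arrays, by at most 1.34-fold. Its slope was 0.08 log2 units per hour, the only positive one among the kept pro-apoptotic probe sets, and it lay between 0.06 and 0.12 when each array was left out in turn.

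Bcl2l11, which encodes Bim, the BH3-only protein that neurons make when they lose trophic support, had 3 probe sets. Probe set 99418_at read 412, 238, 153 and 46.7 at 1, 2, 4 and 6 h. Each later array was lower than the one before, and the 6 h array was 8.83-fold below the 1 h array, with both values above the floor. Its slope was -0.59 log2 units per hour, steeper in size than 99.9% of kept probe sets, as the choice of the family already implied. Without the 1 h array the slope was -0.59, and without the 6 h array it was -0.45.

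A second probe set of Bcl2l11, 100988_at, built on another sequence record, read 246, 220, 173 and 162. It had the same order of arrays over a much smaller range, with the 6 h array 1.52-fold below the 1 h array. Its slope was -0.12 log2 units per hour, and it lay between -0.17 and -0.11 when each array was left out. The third, 99419_g_at, comes from the same record as 99418_at and read 8.5, 13.2, 9.4 and 8.5, under the floor in all 4 arrays, so no change can be read from it. In deviations from their own means, 99418_at and 100988_at were 0.94 log2 units apart (root mean square over the 4 arrays), and 6.98% of all kept probe sets lay nearer to 99418_at than its partner on the same gene. The endothelial marker sum was lower at each later hour as well, and the granule cell, interneuron and choroid plexus sums were higher. In each of these lists some probe sets went the other way. Without Flt1 the endothelial sum was not lower at each later hour. The interneuron sum without Calb2 and the granule cell sum without Prox1 were not higher at each later hour. More probe sets lay under the floor at 6 h than in any other array. The part of each of these in the Bcl2l11 values was not tested.

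**Figure D2:**
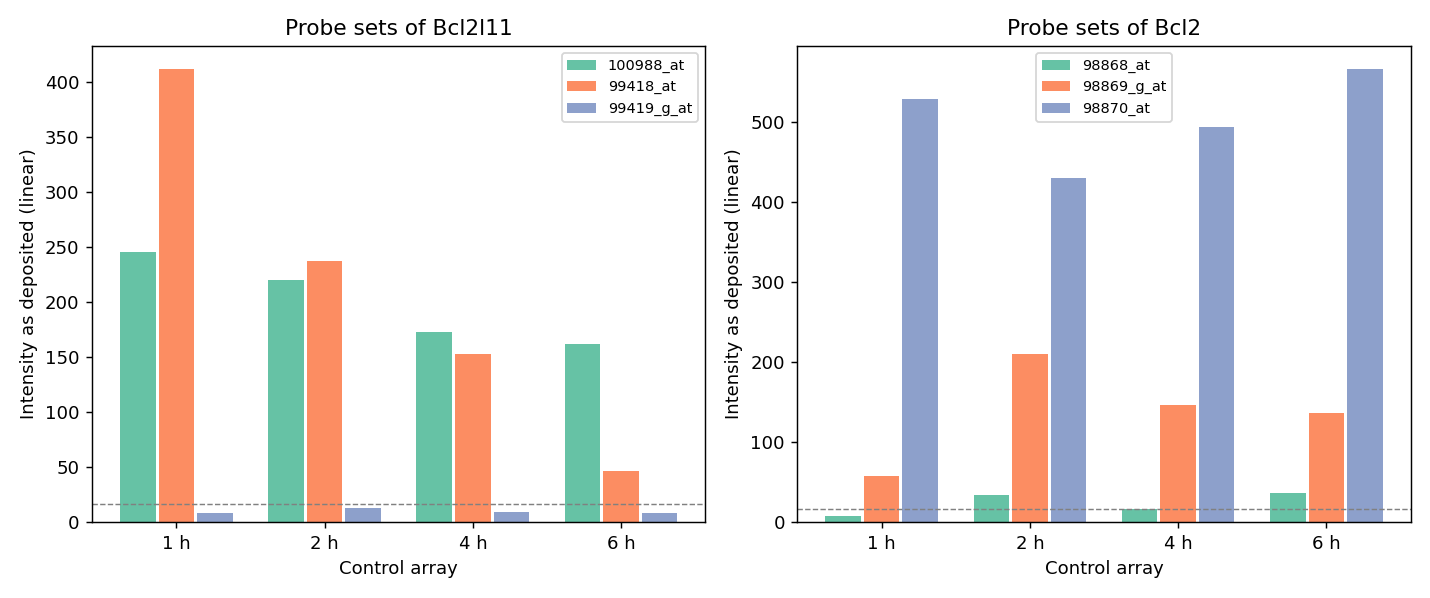
Deposited intensity (linear axis from 0) of the 3 probe sets of Bcl2l11 and the 3 of Bcl2 in each control array, 1 bar per array, with the floor of 16.4 dashed. For Bcl2l11, 99418_at and 100988_at share their order of arrays but not their range, and for Bcl2 the low 1 h bar of 98869_g_at has no counterpart in 98870_at.

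Bad, a BH3-only protein that 14-3-3 proteins hold in the cytosol when survival kinases phosphorylate it, had 2 kept probe sets. Probe set 99670_at read 236, 300, 248 and 246, a mean of 257 ± 28.6 (SD, n = 4), the smallest log2 SD of the kept members at 0.15. Probe set 161500_i_at read 391, 276, 384 and 211, a mean of 316 ± 87.1. The 2 h and 6 h arrays were low on 161500_i_at, whereas 2 h was the highest array on 99670_at. The slopes were -0.01 for 99670_at and -0.12 for 161500_i_at, and that of 161500_i_at was 0.03 without the 6 h array.

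Bid, which caspase 8 cleaves to link death receptors to mitochondria, read 201, 182, 172 and 143, a mean of 174 ± 24.3 (SD, n = 4). As on the 2 Bcl2l11 probe sets, each later array was lower than the one before, here over a range of 1.41-fold. Its slope was -0.09 log2 units per hour, and it lay between -0.10 and -0.07 when each array was left out. In all, 3 of the 11 kept members had a strictly falling order of intensity, against 5.98% of all kept probe sets, and 0 had a strictly rising one, against 4.44%. The members were chosen with this order known for Bcl2l11, so nothing is read from the count.

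By role, the 6 kept pro-apoptotic probe sets had median deviations from their own means of 0.26, 0.12, -0.03 and -0.28 log2 units at 1, 2, 4 and 6 h, and 5 of the 6 had a negative slope. The 5 kept anti-apoptotic probe sets had medians of 0.01, 0.16, -0.02 and 0.05, with 2 negative slopes. Over all kept probe sets the medians were 0.04, 0.01, 0.01 and -0.003, and 46.5% of slopes were positive. The 6 pro-apoptotic probe sets measured 4 genes and the 5 anti-apoptotic ones 4 genes, so partners on the same gene are not independent. The pro-apoptotic group holds Bcl2l11 99418_at and 100988_at, with slopes of -0.59 and -0.12, and the family was chosen with a decline of Bcl2l11 known. Of the other negative slopes in that group, those of Bad were positive without the 6 h array, at 0.03 for 161500_i_at and 0.0008 for 99670_at. The slope of Bid stayed negative when each array was left out. The difference between the roles was not tested, and nothing is read from it.

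**Figure D3:**
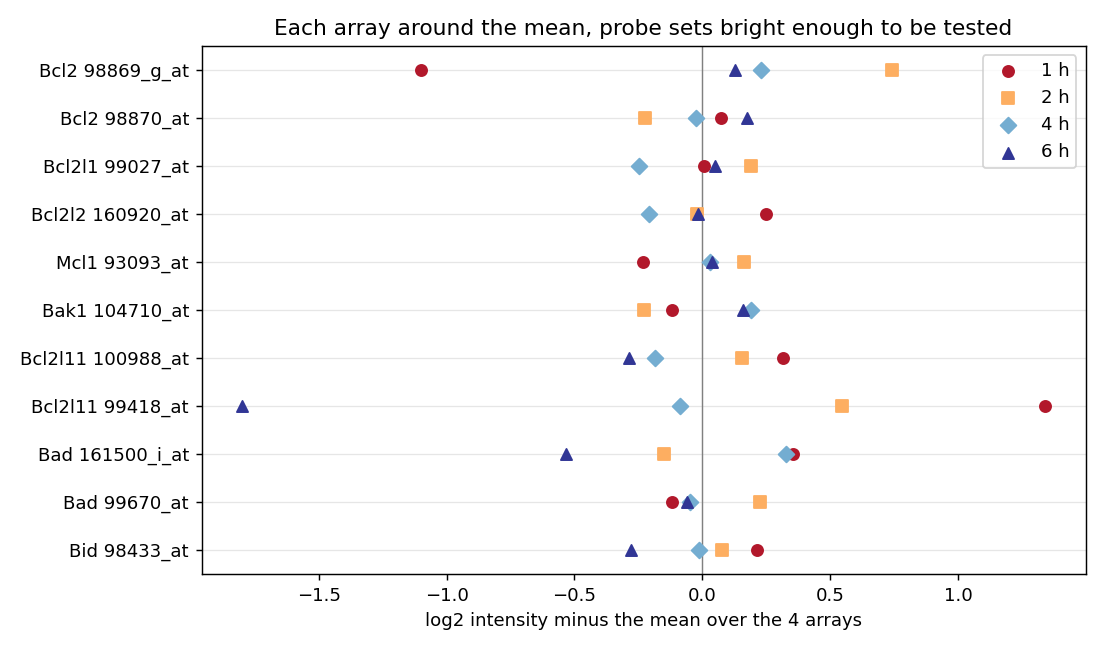
Log2 intensity of each control array minus the mean of the 4 arrays, for the 11 member probe sets that were kept, with 1 point per array. The 1 h point of Bcl2 98869_g_at lies at -1.10 and the 6 h point of Bcl2l11 99418_at at -1.80, whose 1 h point lies at 1.34; the points of the other 9 probe sets lie between -0.53 and 0.35.

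Between single hours, 2-fold differences among the members came from the same pair of probe sets. At 2 h over 1 h, 1 of the 11 members differed at least 2-fold (Bcl2 98869_g_at), against 9.79% of all kept probe sets. At 4 h over 1 h it was 2 of 11 (Bcl2 98869_g_at higher and Bcl2l11 99418_at lower), against 8.41%, and at 6 h over 1 h the same 2, against 9.34%. Without the 1 h array, 0 of 11 differed at 4 h over 2 h, where 4.55% of all kept probe sets did. Bcl2l11 99418_at alone differed at 6 h over 2 h, against 4.07%, and at 6 h over 4 h, against 3.84%. These comparisons share arrays and have 1 array per hour, so no replicate checks them and none has a p-value.

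Set against the mean of the other 3 arrays, the 1 h array was at least 2-fold away in 2 of 11 members, Bcl2l11 99418_at higher and Bcl2 98869_g_at lower, against 7.08% of all kept probe sets. The 6 h array was so in 1 of 11, Bcl2l11 99418_at at -2.40 log2 units, against 2.76%. At 2 h and at 4 h it was 0 of 11, against 3.39% and 2.82%.

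The trend over the hours was fitted on all 7453 kept probe sets with limma, as a line of log2 intensity on the hour with 2 residual degrees of freedom. After Benjamini-Hochberg adjustment over the whole table, 0 of the 11 members passed 0.05, against a background of 0.0134%, which is 1 probe set. At an unadjusted p under 0.05 there was 1 member, Bcl2l11 99418_at, against 4.40% of all kept probe sets. The rule for the members drew on this trend, and nothing is read from these counts.

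**Figure D4:**
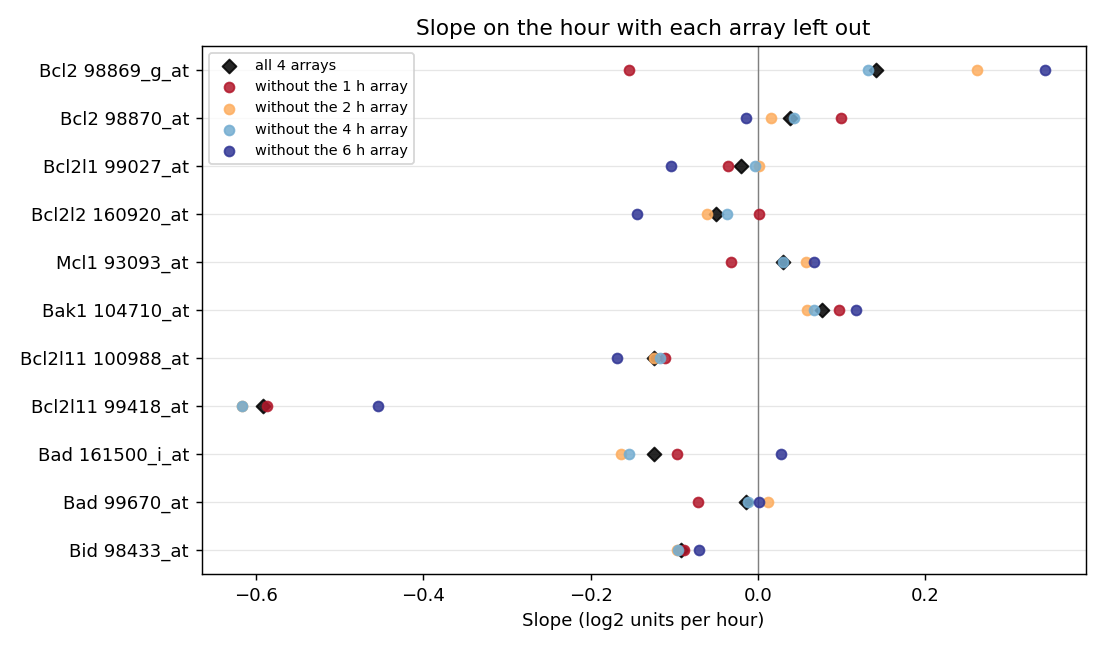
Slope of log2 intensity on the hour (log2 units per hour) for the 11 kept member probe sets, with all 4 arrays (diamonds) and with each array left out (circles). The Bcl2l11 probe sets and Bid stay below 0 and Bak1 above 0 in all 5 fits, whereas Bcl2 98869_g_at is at -0.15 without the 1 h array and at 0.14 with all 4.

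The rest of the pathway was described from 6 lists of genes, which were drawn up with earlier results of these arrays known. In limma, 0 of their 44 kept probe sets passed the adjusted threshold in either direction, and 2 had an unadjusted p under 0.05 (Cycs and Tnfrsf1a 161194_r_at), a share close to the 4.40% over all kept probe sets. The slopes of the 44 were positive in 22 and negative in 22, and 46.5% of those of all kept probe sets were positive. Of 16 other BCL2 family genes 6 were on the array, and 4 probe sets were kept, with 2 positive slopes. Bok, a pore-forming relative of Bax and Bak, read 1330, 1765, 901 and 1184, and Bnip3, a mitochondrial protein induced by low oxygen, 862, 938, 730 and 1008. Both were lowest at 4 h, as Bcl2l1 99027_at was. Bcl2l13, the steepest of the 4, read 453, 872, 713 and 846, with its lowest value at 1 h.

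Among the genes listed for mitochondrial release and the apoptosome, 8 probe sets were kept and 6 slopes were negative. Cycs, the cytochrome c gene, read 744, 585, 488 and 435, lower at each later hour over a 1.71-fold range. Htra2, a protease released with it, read 2571, 1898, 1628 and 1735 on probe set 161446_r_at, and Vdac3, a channel of the outer membrane, 915, 1121, 1068 and 1259. Of the caspases, 8 of 10 listed genes were on the array but probe sets of only 2 were kept, 5 in number with 4 negative slopes. Casp9, the caspase that the apoptosome activates, read 239, 277, 223 and 245 on probe set 100366_at. Its other kept probe sets read 239, 227, 235 and 164 on 100367_g_at and 202.5, 240, 195 and 188 on 103711_at. Those were lowest at 6 h, whereas 100366_at was lowest at 4 h. Casp2 read 340, 385, 345 and 383 on 99049_at and 195, 164, 199 and 101 on 161263_f_at, so the low 6 h value of 161263_f_at was not seen on 99049_at.

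Among inhibitor of apoptosis proteins 3 probe sets were kept, with 2 positive slopes, and none of them was of Xiap. Birc2 read 296, 388, 470 and 359 on probe set 102734_at, and Birc6 485, 367, 290 and 340. The second kept probe set of Birc2, 161883_f_at, read 169, 75.3, 186 and 135. Its lowest array was 2 h, whereas 102734_at was lowest at 1 h, and both were highest at 4 h. Of the death receptors and adaptors, which feed Bid, 6 probe sets were kept with 3 positive slopes. Tradd read 425, 785, 271 and 247, and Traf2, which relays survival signals from the same receptors, 417, 620, 377 and 433. Both were highest at 2 h. Tnfrsf1a, a TNF receptor, read 154, 213, 71.1 and 59.9 on probe set 161194_r_at and 201, 59.0, 235 and 188 on 92793_at, so the 2 h array was the highest on 161194_r_at and the lowest on 92793_at.

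Of the upstream regulators 18 probe sets were kept, with 12 positive slopes, against 46.5% positive over all kept probe sets. The 14-3-3 proteins hold Bad in the cytosol, and of their genes Ywhaz read 9170, 16780, 15531 and 16900, and Ywhag 17699, 14670, 14510 and 14406 on probe set 95716_at. Probe set 102259_at of Ywhag was also the steepest, at 56.1, 428, 470 and 247. Its slope was 0.31 log2 units per hour over all arrays and -0.20 without the 1 h array. The 1 h array was low for Ywhaz and 102259_at and high for 95716_at, so the probe sets of Ywhag disagreed in that array. Foxo3, whose protein is one of the FOXO factors, was named after its values were seen because of the motif above; it read 676, 805, 677 and 732, with a slope of 0.0001 log2 units per hour.

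The 3 kept probe sets of other genes nearest to Bcl2l11 99418_at in their deviations over the 4 arrays were those of Zcchc7, Zfp771 and Chrna7. Their root mean square differences from it were 0.24, 0.35 and 0.37 log2 units. Zcchc7 read 458, 351, 272 and 66.1 on probe set 161425_r_at, and Zfp771 229, 132, 147 and 25.5 on 93707_f_at. The mean log2 value of Zfp771 was 6.69, close to the cut of 6.66 for kept probe sets. Chrna7, a nicotinic acetylcholine receptor subunit, read 328, 357, 218 and 49.1 on 101131_at. In all 3 the 6 h array was the lowest, as on Bcl2l11 99418_at, which follows from their choice as the nearest to it. Over 4 arrays the likeness is a description only.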

How the data were processed

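The deposited table holds an intensity on a linear scale for each of 12488 probe sets in 4 arrays. No label says with which software the authors computed each intensity. The values show a trimmed mean of 500.3 in each array over all rows (2% trimmed at each end), so differences in total RNA do not show. The 66 control probe sets were left out of tests. The array annotation supplied for this work named 10833 probe sets by 1 gene, 396 by several and 1193 by none; probe sets of a gene were not merged. Deposited values were floored at 16.4, and taken to log2; 7453 probe sets with a mean of at least 6.66 were kept. The trend was fitted with limma 3.58.1 in R 4.3.3 (lmFit, eBayes with a trend on mean intensity), checked on simulated data. The simulated noise was the same in every probe set and the planted slopes were steeper than that of any member. The check therefore does not show which slopes of the members' size would be found. The number of arrays limits the precision. Alternatives changed the floor, filter, scaling, time axis, variance prior and arrays.

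The members and lists were chosen with earlier results of these data known. Named by rule were all member probe sets, the 2 brightest and the steepest kept probe set of each pathway list, and the 3 nearest patterns. Other named genes fell outside that rule and were named after their values were seen. They were the cell marker genes, Foxo3, Birc2 161883_f_at, Casp9 100367_g_at and 103711_at, and Tnfrsf1a 92793_at. Promoter windows come from RefSeq, GRCm38.p6. Bax intensity was not analysed here, and only its promoter window was searched.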

Additional observations from a re-analysis of the deposited data

How the results depend on the processing

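No member passed the limma trend under any of the 12 alternatives. Over all kept probe sets, the count of trend calls in limma was 1; it was 0 with no filter on dim probe sets (694 at an unadjusted p under 0.05) and 0 with an untrended variance prior (360), and between 0 and 1 when each array was left out, with 0 without the 4 h array (166) and without the 6 h array (230) and 1 without the 1 h array (390) and without the 2 h array (1000, against 328 with all 4 arrays). With log2 of the hour it was 1 (667). With log2(value + 32) in place of the floor, 1 member in place of 2 was at least 2-fold apart at 4 h over 1 h and 1 in place of 2 at 6 h over 1 h, because the added constant shrinks folds of dim probe sets. With no filter, all 14 member probe sets entered: 3 were 2-fold apart at 2 h over 1 h (20.1% of all probe sets were), 4 at 6 h over 1 h (19.8%), 2 at 4 h over 2 h (16.0%), 3 at 6 h over 4 h (14.7%), 3 at 1 h against the other arrays (16.4%) and 2 at 6 h against the other arrays (10.6%). With a filter at the 60th percentile 6 member probe sets were left, without Bcl2l11 99418_at and Bcl2 98869_g_at, and the counts of members were 0 in each comparison between hours (0.745% to 5.01% of all probe sets) and 0 at 1 h (3.82%) and 0 at 6 h (0.402%) against the other arrays. Scaling to the same median, quantile normalization and the higher floor left the counts of members as they were. Slopes kept their sign in all 11 alternatives on the hour for Bak1, Bid and Bcl2l11 100988_at and 99418_at, the last between -0.62 and -0.45. Bcl2l11 99419_g_at, under the floor in all 4 arrays, had no slope to compare. The slopes of the other 9 member probe sets changed sign in 1 to 3 of the 11, among them Bcl2 98869_g_at (-0.15) and Mcl1 (-0.03) without the 1 h array. No paired analysis was possible because each hour has 1 array.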
